A study of Mus musculus with 295 samples.

Results

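Leptin is the hormone that fat cells secrete in proportion to the fat they store, and its gene is Lep. The mice described here are 142 of 295 F2 mice, chosen by their array values: their adipose array gave a low value for Eif2s3y, a Y-linked gene of a translation initiation factor. Ranked by their Lep level, these mice were divided into 3 groups: the 47 highest, called Lep-rich, were set against the 47 lowest, called Lep-poor, across all other probes. The 48 mice between them, called Lep-middle, were left out of the contrast. All F2 mice descended from C57BL/6J and C3H/HeJ parents, carried the ApoE null background in both strains, and ate a fatty Western diet between weeks 8 and 24 of age. The absence of ApoE, the lipoprotein ligand that clears remnant particles, is therefore shared by Lep-rich and Lep-poor mice. The labels say that both sexes were present without giving the sex of a mouse, and they give no body weight, fat depot or genotype. Each mouse stands for itself on 1 array, with the mouse's RNA in Cy3 and a pool of all the RNAs in Cy5. Values are log2 ratios of a mouse to that pool, so 0 means the average of the cross and 1 means a level that is 2 times that average.

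Leptin acts through its receptor in the brain, where it curbs appetite and raises energy use, and adipocytes make more of it as they enlarge. In obese fat, macrophages gather, chemokines such as CCL2 draw further monocytes, the matrix is rebuilt, and adipocytes make serum amyloid A and orosomucoid, both proteins of the acute phase. Thermogenic genes such as those of the PGC-1 coactivators are known to be low in enlarged white adipocytes. The comparison asks which transcripts differ between fat samples rich and poor in Lep mRNA within mice of like Eif2s3y level.

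Lep chose the groups, so its values are a description. Its log2 ratio was 0.33 to 0.97 with a median of 0.56 in Lep-rich mice, and -1.38 to -0.06 with a median of -0.25 in Lep-poor mice. Those medians are 1.47 and 0.844 times the pool. The highest Lep-middle mouse, at 0.320, was just below the lowest Lep-rich mouse at 0.326, and the lowest Lep-middle mouse, at -0.053, was just above the highest Lep-poor mouse at -0.060. The groups are thus slices of a continuous range, with no gap between them. A single probe measured Lep. Eif2s3y itself was at -4.16 or below in the 142 mice and at -0.10 or above in the other 153, so no array lay near the cut of -0.6 on the deposited scale (-1.99 on the log2 scale). Kdm5d, a Y-linked histone demethylase gene that the rule did not use, had a median of -3.91 in the Eif2s3y-low mice and 1.29 in the Eif2s3y-high mice.

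Some of the fat samples held transcripts of other tissue. Genes of steroid hormone synthesis, typical of ovary and adrenal, gave a list score (the mean z-score of the list's members over all 295 arrays) above 0.5 in 53 of the 142 mice. The highest score below that limit was 0.493 and the lowest above it was 0.724. Of the 53 mice, 13 were Lep-rich, 19 Lep-middle and 21 Lep-poor. The difference between 13 of 47 Lep-rich and 21 of 47 Lep-poor mice did not pass Fisher's exact test (two-sided p 0.132). Among the Eif2s3y-high mice, 2 had such a score. A second rule, over more lists, marked mice with any high score among the epithelium, skeletal muscle, exocrine pancreas, B cell, epididymis and steroidogenic lists. High meant more than 3 robust SDs above the median of the Eif2s3y-low mice. For the steroidogenic list this is not the limit of 0.5, so the 53 mice need not all be marked. The second rule marked 66 of the 142 mice, with 15 of 47 Lep-rich and 32 of 47 Lep-poor mice, so other tissue was not evenly spread. The fit without these 66 mice is given in the last section. The adipocyte identity list, which marks the labelled tissue, had a median score of 0.45 in Lep-rich mice, with a range of -0.59 to 1.35, and of 0.50 in Lep-poor mice, with a range of -1.46 to 1.67. Adipocyte transcripts were thus found in both groups at overlapping levels. List counts for the Eif2s3y-low mice are given below with and without the 53 mice, which leaves 34 against 26 mice.

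The promoters of Lep and of 3 acute phase genes that rose with it are shown, chosen with their motif known. They are RefSeq sequences of GRCm38.p6, 5′ to 3′ on the strand of the gene, with 300 bases each that span 250 bases before to 50 after the gene's start. Capitals mark matches to the C/EBP-type motif TTGCNNAA, the TATA motif TATAAA or the NF-kB-type motif GGNNTTTCC. C/EBP proteins are transcription factors of adipocytes and of the acute phase response.
Lep, chr6:29059971-29060270, plus strand: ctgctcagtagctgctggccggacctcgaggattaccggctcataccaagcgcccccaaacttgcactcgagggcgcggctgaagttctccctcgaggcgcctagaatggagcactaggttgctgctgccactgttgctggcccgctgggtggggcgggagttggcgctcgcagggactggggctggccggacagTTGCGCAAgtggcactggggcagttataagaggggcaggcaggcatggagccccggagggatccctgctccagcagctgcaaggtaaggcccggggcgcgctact
Saa3, chr7:46715627-46715926, minus strand: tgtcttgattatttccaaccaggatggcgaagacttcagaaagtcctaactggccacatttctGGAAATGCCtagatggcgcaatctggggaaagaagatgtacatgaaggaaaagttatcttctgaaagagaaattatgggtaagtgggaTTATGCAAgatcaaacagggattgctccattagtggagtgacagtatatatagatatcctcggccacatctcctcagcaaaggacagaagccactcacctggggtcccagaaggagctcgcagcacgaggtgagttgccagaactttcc
Saa1, chr7:46742931-46743230, minus strand: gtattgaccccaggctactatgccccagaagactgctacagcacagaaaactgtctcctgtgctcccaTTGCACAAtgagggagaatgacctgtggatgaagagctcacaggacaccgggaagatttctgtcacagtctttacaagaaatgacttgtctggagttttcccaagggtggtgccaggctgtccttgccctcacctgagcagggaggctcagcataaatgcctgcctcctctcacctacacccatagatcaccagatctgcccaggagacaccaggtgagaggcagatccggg
Orm2, chr4:63362199-63362498, plus strand: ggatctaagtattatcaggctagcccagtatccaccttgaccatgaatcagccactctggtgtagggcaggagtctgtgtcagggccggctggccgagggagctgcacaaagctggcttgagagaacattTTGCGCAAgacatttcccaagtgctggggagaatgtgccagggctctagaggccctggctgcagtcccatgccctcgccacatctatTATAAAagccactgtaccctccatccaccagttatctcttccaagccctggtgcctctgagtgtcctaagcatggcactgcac

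The TTGCNNAA motif, searched on both strands, had 1 match in each of these 4 windows, which the choice of windows fixed, and 10.8% of all 32851 RefSeq promoters of this length hold it. Of the 10 measured genes of the acute phase list, 8 have a promoter in the RefSeq table, and each of the 8 holds a match, Cp in 1 of its 2 promoters. They are 5 genes called higher in Lep-rich mice and 3 that were not. TATAAA had 1 match, in Orm2, and is in 13.6% of all promoters. The NF-kB-type motif GGNNTTTCC had 1 match, in Saa3, and is in 5.82% of all promoters. No matches overlapped. The motifs and genes were chosen with the results known, and a match describes letters and not a bound site.

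More than 5 in 10 probes differed between Lep-rich and Lep-poor mice, mostly by little. Of 22893 probes tested with limma, 54.8% passed a Benjamini-Hochberg adjusted p of 0.05: 6782 were higher in Lep-rich mice (29.6%) and 5767 were lower (25.2%). Such probes and genes are called higher or lower below. A list whose counts are near the shares in the same fit does not stand out from all probes. The median size of a called difference was 0.22 on the log2 scale, and the median difference over all probes tested was 0.0068. Of the called probes, 14 were higher and 58 were lower by at least 1 on the log2 scale. Of the 11453 genes, each read from its most variable probe, 3266 were called higher and 3061 lower. Without the 53 mice with steroidogenic transcripts, 4099 probes were called higher (17.9%) and 3600 lower (15.7%), of which 3972 and 3328 had the same call with all mice. Lep and the other probes were read from the same arrays, so array error is shared between the ranking and the values. In whole tissue, a change in the number of cells of a type and a change in RNA per cell cannot be told apart.

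**Figure D1:**
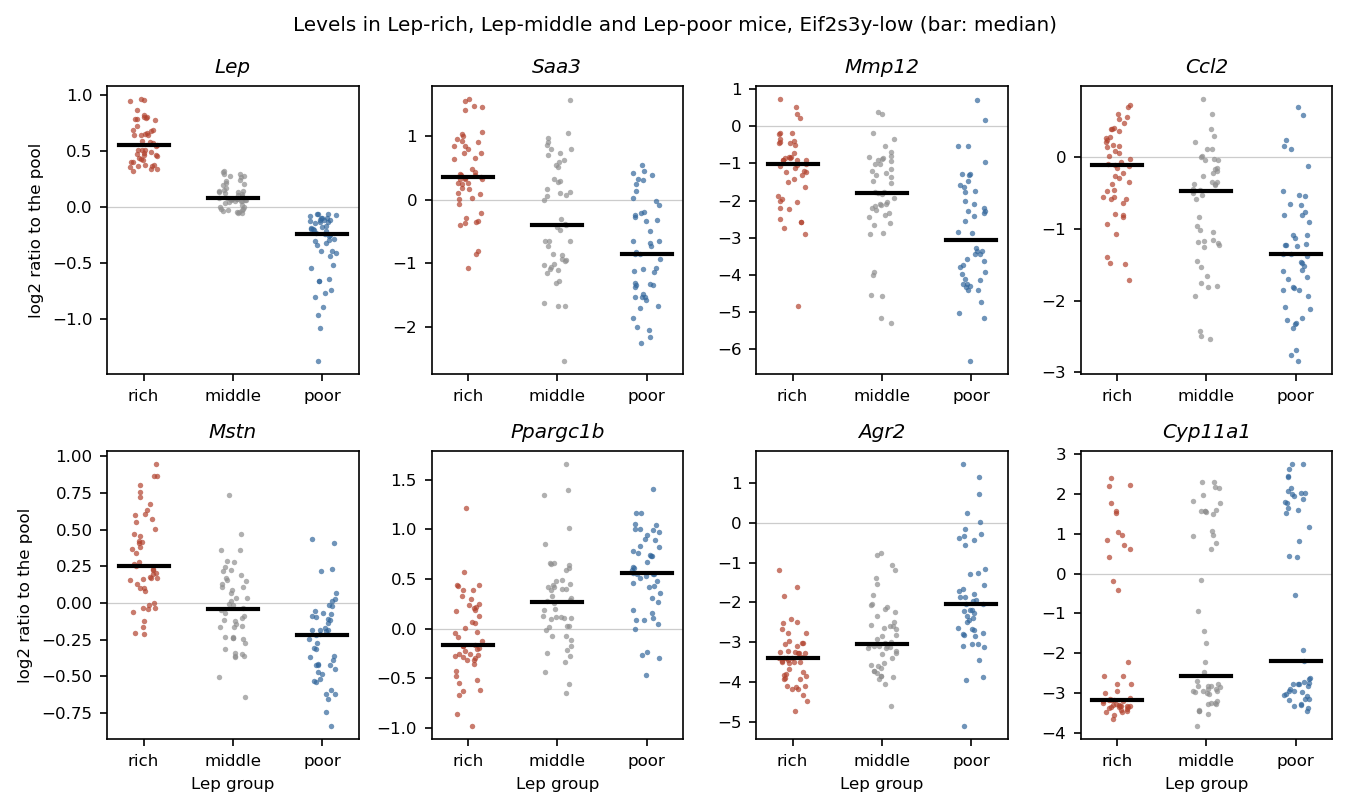
Log2 ratio to the pool (vertical axis) for 8 genes in each Lep-rich, Lep-middle and Lep-poor mouse of the Eif2s3y-low set, 1 point a mouse, with the median as a bar. Lep defines the groups. Saa3, Mmp12, Ccl2 and Mstn have higher medians in Lep-rich mice, Ppargc1b and Agr2 have lower ones, and Cyp11a1 falls into a high and a low cloud in each group.

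Acute phase genes were among the clearest to rise with Lep. Of the 10 measured members of the acute phase and orosomucoid list, 6 were higher and 1 lower, against 29.6% and 25.2% of all probes. Their median difference was 0.41. The counts were again 6 and 1 without the mice with steroidogenic transcripts, but not for the same genes. Pltp lost its call in that fit, and 1 of Saa2, Lcn2 and Cebpd, which were not called with all mice, gained one. Saa3, the serum amyloid A that adipocytes and macrophages make, was at -1.07 to 1.59 with a median of 0.36 in Lep-rich mice, and at -2.26 to 0.56 with a median of -0.85 in Lep-poor mice. The ranges overlapped, yet 45 of 47 Lep-rich mice were above the Lep-poor median. Saa3 rose by 1.21 ± 0.15 (SE) on the log2 scale, a 2.32-fold difference, with an adjusted p of 4.97e-10. Saa1, a serum amyloid A best known from liver, rose by 1.17 ± 0.14 (adjusted p 8.05e-10). The Saa1 and Saa3 probes had r = 0.99 over the 142 mice, and whether they share signal was not tested. Saa2, whose sequence is close to that of Saa1, had r = 0.45 with the Saa1 probe. With all mice it differed by 0.38 ± 0.20 without passing the test (adjusted p 0.096).

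Orm1 and Orm2 encode orosomucoids, plasma carriers that adipocytes also release. Orm1 was at -0.28 to 1.32 with a median of 0.66 in Lep-rich mice, and at -2.36 to 1.001 with a median near 0 in Lep-poor mice. In 44 of 47 Lep-rich mice it was above the Lep-poor median. It rose by 0.65 ± 0.11 (adjusted p 1.52e-06), and Orm2 rose by 0.58 ± 0.08 (adjusted p 3.5e-08); their probes had r = 0.86 over the 142 mice and may share signal. Steap4, a metalloreductase induced in inflamed fat, rose by 0.43 ± 0.08 (adjusted p 2.55e-06), and Pltp, the phospholipid transfer protein gene, by 0.24 ± 0.09 (adjusted p 0.0229). Pltp lost its call without the mice with steroidogenic transcripts (0.051, adjusted p 0.739). Cp, which encodes the copper-carrying ferroxidase ceruloplasmin, ran the other way: it was at -1.62 to 0.33 in Lep-rich mice and at -1.27 to 1.05 in Lep-poor mice, and fell by 0.54 on the log2 scale (SE 0.09, adjusted p 1.68e-06). Lcn2, which encodes an iron-sequestering lipocalin, and Cebpd, a C/EBP factor gene, did not pass the test with all mice, with differences of 0.18 and -0.096.

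Mstn, the gene of the growth inhibitor myostatin, was higher in Lep-rich mice. Its log2 ratio was -0.21 to 0.95 with a median of 0.25 in Lep-rich mice, and -0.84 to 0.44 with a median of -0.22 in Lep-poor mice. All 47 Lep-rich mice were above the Lep-poor median, although the ranges overlapped. The difference was 0.55 ± 0.06 (adjusted p 3.95e-11), or 1.47-fold. Of the 11 measured myostatin and activin genes, 3 were higher and 3 lower, near the 29.6% and 25.2% of all probes, with a median difference of 0.078. Without the mice with steroidogenic transcripts, 3 were higher and 1 lower, against 17.9% and 15.7% of all probes. Gdf3, a TGF-beta family ligand gene expressed by fat macrophages, was at -2.56 to 2.67 in Lep-rich mice and at -3.43 to 2.43 in Lep-poor mice. Gdf3 rose by 1.34 ± 0.27 (adjusted p 3.48e-05). Smad2, which encodes a signal transducer of these ligands, rose by 0.15 ± 0.04 (adjusted p 0.00143). Acvr2b, a receptor gene of myostatin and activin, fell by 0.17 on the log2 scale (adjusted p 0.000262), Inhbb, an activin subunit gene, by 0.29 (adjusted p 0.0178), and Inhba, another activin subunit gene, by 0.91 (adjusted p 0.0443). The Acvr2b and Inhbb calls were lost without the mice with steroidogenic transcripts (adjusted p 0.273 and 0.88), while Inhba kept its call at a smaller difference of -0.33 (adjusted p 0.035).

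Macrophage genes were higher in Lep-rich mice as a group. Of 19 measured macrophage genes, 16 were higher and none lower, against 29.6% and 25.2% of all probes, and their median difference was 0.62. Adgre1, the adhesion receptor gene that marks macrophages, was at -1.63 to 1.27 with a median of -0.039 in Lep-rich mice, and at -3.04 to 1.19 with a median of -1.17 in Lep-poor mice. The ranges overlapped nearly as far as they reached upward, and 43 of 47 Lep-rich mice were above the Lep-poor median. Adgre1 rose by 0.91 ± 0.16 (adjusted p 4.73e-06). Mrc1, the mannose receptor of tissue-resident macrophages, rose by 0.66 ± 0.09 (adjusted p 1.29e-08), with all 47 Lep-rich mice above the Lep-poor median. Cd14, the co-receptor for endotoxin, rose by 0.60 ± 0.11 (adjusted p 2.97e-06). Without the mice with steroidogenic transcripts, 9 of the 19 were called higher and none lower, against 17.9% and 15.7% of all probes. Mrc1, Cd14 and Adgre1 were among the 9. Some other immune lists were not mostly higher. Of 15 inflammatory cytokine genes, 2 were higher and 1 lower, and of 9 T cell genes, 1 and 2. Of 8 B cell genes, 1 was higher and 1 lower, and of 5 MHC class 2 genes, 2 and none. In the order given, the counts without those mice were none and 1, none and 3, 1 and 5, and 1 and 1.

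Mmp12, which encodes macrophage elastase, had the largest positive difference of any gene called. It was at -4.84 to 0.73 with a median of -1.01 in Lep-rich mice (45 mice with a value), and at -6.32 to 0.70 with a median of -3.06 in Lep-poor mice (46 mice). The upper ends of the ranges met, while 44 of the 45 Lep-rich mice were above the Lep-poor median. The difference was 1.69 ± 0.27 (adjusted p 3.81e-07), or 3.22-fold. Of the 8 measured genes of lipid-laden macrophages, 5 were higher and 1 lower, with a median difference of 0.48. Without the mice with steroidogenic transcripts, 3 were higher and none lower. The shares of all probes were 29.6% and 25.2%, or 17.9% and 15.7% without those mice. Itgax, which encodes CD11c, rose by 0.90 ± 0.22 (adjusted p 0.000312), and Ctsk, a collagen-cleaving cathepsin gene, by 0.66 ± 0.15 (adjusted p 0.000195). Itgad, which encodes a further macrophage integrin, rose by 1.52 ± 0.28 (adjusted p 5.11e-06), and by 0.84 without the mice with steroidogenic transcripts (adjusted p 0.0347). Itgax lost its call without the mice with steroidogenic transcripts (adjusted p 0.0563), and Itgad without the 66 mice with any other tissue list high (adjusted p 0.065).

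Chemokines and their receptors rose in part: 12 of 23 were higher and 3 lower, against 29.6% and 25.2% of all probes. Their median difference was 0.18. Ccl2, which encodes the main monocyte attractant MCP-1, was at -1.72 to 0.72 with a median of -0.11 in Lep-rich mice, and at -2.84 to 0.70 with a median of -1.35 in Lep-poor mice. The highest mice of both groups were alike, and 43 of 47 Lep-rich mice were above the Lep-poor median. Ccl2 rose by 1.09 ± 0.15 (adjusted p 2.02e-08). Ccl7, another monocyte attractant gene, rose by 0.93 ± 0.12 (adjusted p 1.02e-08), and Ccl9, a myeloid chemokine gene, by 0.90 ± 0.15 (adjusted p 6.96e-07). Without the mice with steroidogenic transcripts, 8 of the 23 were higher and 4 lower, and Ccl9 rose by 0.55 (adjusted p 0.00956). With the macrophage list score as a covariate, 6 of the 23 were higher and 5 lower, with a median of 0.053, so the list no longer ran mostly one way. Ccl2, Ccl7 and Ccl9 still passed the test in that fit (adjusted p 0.0002, 0.000247 and 0.0157), while of the 19 macrophage genes, which make up that score, 1 was higher and 1 lower. In that fit 37.9% of probes were called, 4817 higher (21.0%) and 3862 lower (16.9%).

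Further genes with large positive differences have varied roles. Tph2, the tryptophan hydroxylase gene of serotonin neurons, was at -2.02 to 1.74 with a median of 0.31 in Lep-rich mice, and at -3.99 to 1.11 with a median of -1.48 in Lep-poor mice. In 46 of 47 Lep-rich mice it was above the Lep-poor median, and it rose by 1.61 ± 0.21 (adjusted p 4.51e-09). Ubd encodes a ubiquitin-like modifier induced in inflammation. It was at -1.80 to 1.17 in Lep-rich mice and at -4.19 to 0.57 in Lep-poor mice, and rose by 1.58 ± 0.20 (adjusted p 4e-09). Both genes were above the Lep-poor median in nearly all Lep-rich mice. Hmox1, the heme-degrading oxygenase gene, rose by 1.17 ± 0.24 (adjusted p 3.16e-05). Rgs1, a regulator of G-protein signalling in leukocytes, rose by 1.12 ± 0.22 (adjusted p 1.88e-05), and Adam8, a leukocyte metalloprotease gene, by 1.06 ± 0.21 (adjusted p 2.09e-05). Ifi202b, an interferon-inducible gene, rose by 1.38 ± 0.32 (adjusted p 0.000192) and ranged from -3.84 to 2.11 in Lep-rich mice and from -4.29 to 1.26 in Lep-poor mice. The Hmox1 and Ifi202b calls were lost without the mice with steroidogenic transcripts (adjusted p 0.12 and 0.0906).

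**Figure D2:**
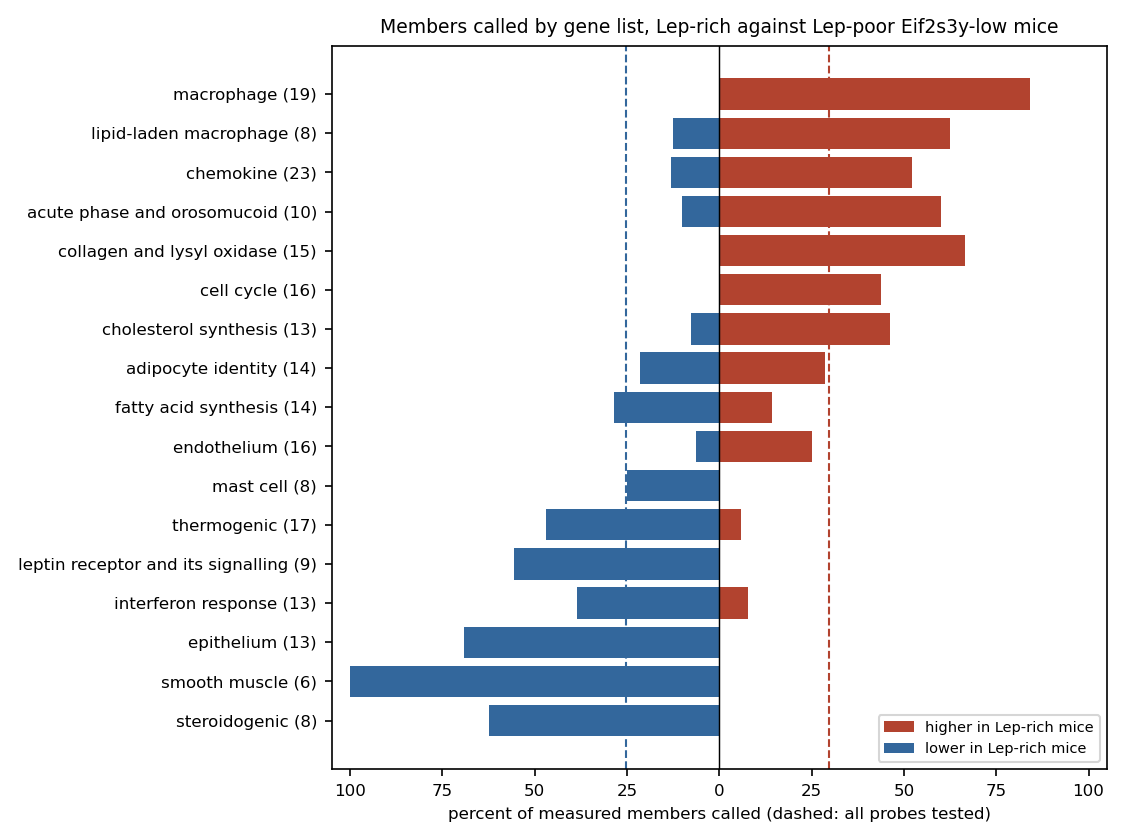
Share of each gene list's measured members (number in brackets) called higher (right) or lower (left) in Lep-rich against Lep-poor mice of the Eif2s3y-low set, with dashed lines at the shares of all probes tested, 29.6% and 25.2%. Macrophage genes are called higher in 16 of 19 and collagen genes in 10 of 15, while smooth muscle genes are called lower in 6 of 6 and epithelial genes in 9 of 13.

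Collagens were higher in the Lep-rich fat. Of 15 collagen and lysyl oxidase genes, 10 were higher and none lower, with a median difference of 0.21. Without the mice with steroidogenic transcripts, 6 were higher and none lower. The shares of all probes were 29.6% and 25.2%, or 17.9% and 15.7% without those mice. Col4a1, a basement membrane collagen gene, was at -0.45 to 0.86 with a median of 0.16 in Lep-rich mice, and at -1.98 to 0.42 with a median of -0.27 in Lep-poor mice. It rose by 0.53 ± 0.08 (adjusted p 3.47e-07), with 43 of 47 Lep-rich mice above the Lep-poor median. Col5a2, a fibrillar collagen gene, rose by 0.59 ± 0.11 (adjusted p 4.88e-06), and Lox, which encodes a collagen cross-linking enzyme, by 0.51 ± 0.11 (adjusted p 7.02e-05). Of 19 other matrix genes, 9 were higher and 2 lower, and 7 were higher and none lower without those mice. Postn, a matrix protein gene of growing tissue, rose by 0.63 ± 0.10 (adjusted p 7.55e-07). Mmp3, a stromal matrix protease gene, rose by 0.83 ± 0.15 (adjusted p 3.98e-06), and Timp1, the gene of a protease inhibitor, by 0.58 ± 0.14 (adjusted p 0.000347).

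Genes of growth were split. Of 16 cell cycle genes, 7 were higher and none lower, with a median of 0.12; Cdk1, the mitotic kinase gene, rose by 0.29 ± 0.07 (adjusted p 0.000306), Pcna, the replication clamp gene, by 0.39 ± 0.10 (adjusted p 0.000606) and Birc5, which encodes survivin, by 0.40 ± 0.13 (adjusted p 0.00516). The shares of all probes were 29.6% and 25.2%. Without the mice with steroidogenic transcripts 1 of the 16, Cdk1, was called higher, below the 17.9% of all probes. Mest, an imprinted marker of fat expansion, was at -0.63 to 1.04 in Lep-rich mice and at -4.79 to 0.82 in Lep-poor mice. Mest rose by 0.62 ± 0.16 (adjusted p 0.000651), Npr3, a clearance receptor gene for natriuretic peptides, by 0.37 ± 0.11 (adjusted p 0.00415), and Sfrp5, a secreted Wnt inhibitor gene of fat cells, by 0.30 ± 0.07 (adjusted p 0.000195). Peg3, another imprinted gene, fell by 0.53 on the log2 scale (adjusted p 0.00241), and Sfrp1, a Wnt inhibitor gene, fell by 0.37 (adjusted p 0.0207). Tnmd did not pass the test, with a difference of -0.079. These 6 genes are the measured members of the adipose expansion list, 3 higher and 2 lower, against 29.6% and 25.2% of all probes. Without the mice with steroidogenic transcripts, 2 were higher and 2 lower: Npr3 and Sfrp1 lost their calls (adjusted p 0.0611 and 0.521), and Tnmd was called lower (-0.26, adjusted p 0.0094).

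Adipocyte identity genes were called in both directions, and their counts changed with the macrophage score. Of 14 adipocyte identity genes, 4 were higher and 3 lower, near the shares of all probes, with a median difference of -0.0062. Without the mice with steroidogenic transcripts, 2 were higher and none lower. With the macrophage list score as a covariate, 8 were higher and none lower, with a median of 0.21. Gpd1, which makes glycerol phosphate for triglyceride, rose by 0.20 ± 0.05 (adjusted p 0.000567), at -0.15 to 0.80 in Lep-rich mice and -0.63 to 0.58 in Lep-poor mice. Slc2a4, the gene of the insulin-sensitive glucose transporter GLUT4, was at -1.03 to 0.96 in Lep-rich mice and at -1.64 to 1.80 in Lep-poor mice. Slc2a4 fell by 0.40 on the log2 scale (adjusted p 0.00269) and Pck1, an enzyme of glycerol synthesis from pyruvate, by 0.53 (adjusted p 0.00107). Both lost their calls without the mice with steroidogenic transcripts (adjusted p 0.152 and 0.0734). Of 14 fatty acid synthesis genes, 2 were higher and 4 lower, against 29.6% and 25.2% of all probes, and none was higher and 1 lower without those mice. With the macrophage score as a covariate, 8 of the 14 were higher and none lower, with a median of 0.29. Without it, Srebf1, the gene of the lipogenic factor SREBP-1, fell by 0.36 (adjusted p 0.000712) and Acaca, which encodes acetyl-CoA carboxylase, by 0.29 (adjusted p 0.0118, and 0.0977 without those mice). Of 13 cholesterol synthesis genes, 6 were higher and 1 lower, with a median of 0.13, and 6 were higher and none lower without those mice. Stard4, a cholesterol carrier gene, rose by 0.33 ± 0.05 (adjusted p 1.4e-07) and Lss, which encodes lanosterol synthase, by 0.33 ± 0.07 (adjusted p 9.02e-05), while Fdft1, which encodes squalene synthase, fell by 0.35 (adjusted p 0.000122, and 0.054 without those mice).

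Of the 17 thermogenic genes, 8 were lower and 1 higher, with a median of -0.26, against 25.2% and 29.6% of all probes. Without the mice with steroidogenic transcripts, 3 were lower and 1 higher. The lower share was then near the 15.7% of all probes. With the macrophage list score as a covariate, 1 was lower and none higher, against 16.9% and 21.0% of all probes. Of 12 fatty acid oxidation genes, 2 were higher and 3 lower, no more than the shares of all probes. Without the mice with steroidogenic transcripts, 1 was higher and none lower. Of 5 oxidative phosphorylation genes, 1 was lower with and without those mice. Ppargc1b encodes the coactivator PGC-1 beta. It was at -0.98 to 1.21 with a median of -0.16 in Lep-rich mice, and at -0.47 to 1.40 with a median of 0.56 in Lep-poor mice. The ranges overlapped, and 45 of 47 Lep-rich mice were below the Lep-poor median. Ppargc1b fell by 0.63 on the log2 scale (SE 0.09, adjusted p 1.18e-08). Ppara, which encodes a nuclear receptor of fat oxidation, fell by 0.53 (adjusted p 5.97e-05) and Ppargc1a, which encodes PGC-1 alpha, by 0.46 (adjusted p 7.19e-05). Elovl3, a fatty acid elongase gene high in brown fat, fell by 0.29 (adjusted p 0.0127). In the fit without the mice with steroidogenic transcripts, Ppargc1b and Ppargc1a kept their calls while Ppara and Elovl3 lost theirs (adjusted p 0.0503 and 0.33).

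The leptin receptor gene Lepr did not pass the test, at -0.13 to 0.59 in Lep-rich mice and -0.55 to 0.68 in Lep-poor mice, with a difference of 0.035 ± 0.041 (adjusted p 0.479). Of the 9 measured genes of leptin receptor signalling, 5 were lower and none higher, and 4 were lower without the mice with steroidogenic transcripts. The shares of all probes called lower were 25.2% and 15.7%. Sh2b1, which encodes an adaptor that strengthens leptin signalling through JAK2, was at -0.80 to 0.43 in Lep-rich mice and at -0.53 to 0.92 in Lep-poor mice. Sh2b1 fell by 0.44 on the log2 scale (SE 0.06, adjusted p 1.92e-08), and Socs1, which encodes a suppressor of cytokine signalling, by 0.51 (SE 0.09, adjusted p 6.93e-06). Lepre1, 1 of the 5, encodes a collagen-modifying hydroxylase and no leptin receptor component. Its difference was -0.22 (adjusted p 0.000369, and 0.0532 without the mice with steroidogenic transcripts).

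Of 4 caveola genes, 1 was higher and 2 lower, against 29.6% and 25.2% of all probes, and the counts were the same without the mice with steroidogenic transcripts. Cavin1, which encodes a coat protein of these membrane pits, rose by 0.25 ± 0.04 (adjusted p 2.93e-07). Pacsin3, a membrane-bending protein gene, was at -1.22 to 0.45 in Lep-rich mice and at -1.23 to 1.38 in Lep-poor mice, and fell by 0.64 on the log2 scale (SE 0.09, adjusted p 5.04e-08). Cav3, the caveolin of muscle, fell by 0.37 (adjusted p 0.000497), and Cav1 did not pass the test, with a difference of -0.078. Serpina12, which encodes the adipokine vaspin, rose by 0.40 ± 0.07 (adjusted p 3.3e-06), and Apln, which encodes apelin, fell by 0.46 on the log2 scale (adjusted p 2.41e-07). Esr1, the estrogen receptor gene, rose by 0.48 ± 0.09 (adjusted p 2.32e-05), while Greb1, an estrogen-responsive gene, fell by 1.23 (adjusted p 0.00154), or by 0.76 without the mice with steroidogenic transcripts, and Hsd17b12, a steroid and fatty acid dehydrogenase gene, by 0.37 (adjusted p 5.94e-07). The clock repressor gene Nr1d1 fell by 0.64 (adjusted p 3.67e-06) and Dbp, a clock output gene, by 0.29 (adjusted p 0.000235, and 0.083 without those mice), while Tef, a related factor gene, rose by 0.27 ± 0.05 (adjusted p 7.25e-06). Of 14 clock genes, 4 were higher and 4 lower, near the shares of all probes, and 3 were higher and 1 lower without those mice. Of 13 interferon response genes, 1 was higher and 5 were lower, against 29.6% and 25.2% of all probes. Without those mice 5 were lower, against 15.7%. Isg15, a ubiquitin-like antiviral gene, fell by 0.25 (adjusted p 0.00016) and Mx2, an antiviral GTPase gene, by 0.23 (adjusted p 0.00153).

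Many genes with large negative differences belong to epithelium or to steroid-making tissue. Of 13 epithelial genes, 9 were lower and none higher, against 25.2% and 29.6% of all probes, with a median difference of -0.59. Without the mice with steroidogenic transcripts, 3 were lower, against 15.7%. Epcam, the epithelial adhesion molecule gene, was at -3.95 to 0.0030 with a median of -2.78 in Lep-rich mice, and at -3.69 to 1.71 with a median of -1.45 in Lep-poor mice. In 43 of 47 Lep-rich mice it was below the Lep-poor median. Epcam fell by 1.21 on the log2 scale (SE 0.24, adjusted p 2.58e-05), and by 0.69 without the mice with steroidogenic transcripts (adjusted p 0.00739). Agr2, which encodes a disulfide isomerase of mucous epithelia, was at -4.73 to -1.19 with a median of -3.40 in Lep-rich mice, and at -5.10 to 1.48 with a median of -2.04 in Lep-poor mice. Agr2 fell by 1.50 (SE 0.22, adjusted p 6.65e-08), and by 1.02 without those mice (adjusted p 0.00084). Wnt10a, a Wnt ligand gene, fell by 1.27 (adjusted p 4.33e-07), and by 1.16 without those mice (adjusted p 9.45e-05). Cldn3, a tight junction gene, fell by 1.39 (adjusted p 3.35e-05) and Spint2, an epithelial protease inhibitor gene, by 0.58 (adjusted p 1.74e-06), or by 0.55 and 0.35 without those mice. Cdh1, the E-cadherin gene, fell by 1.39 on its more variable probe (adjusted p 0.000947), while its other probe gave 0.11 (adjusted p 0.129). It lost its call without those mice (adjusted p 0.156).

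Of the 8 steroidogenic genes, 5 were lower and none higher, against 25.2% and 29.6% of all probes, with a median of -0.82. Against 15.7% of all probes, 2 were lower without the mice with steroidogenic transcripts. Those mice were left out by the score of these same 8 genes. Smaller differences of these genes without them are thus partly set by that choice. Cyp11a1, the side-chain cleavage enzyme that starts steroid synthesis, was at -3.65 to 2.39 with a median of -3.17 in Lep-rich mice, and at -3.43 to 2.75 with a median of -2.19 in Lep-poor mice. The ranges were nearly the same, with a high and a low cloud of mice in each group. Cyp11a1 fell by 1.16 on the log2 scale (SE 0.45, adjusted p 0.0257), and lost its call without the mice with steroidogenic transcripts (adjusted p 0.124). Foxl2, an ovarian transcription factor gene, fell by 0.81 (adjusted p 0.026), Hsd3b1, a steroid dehydrogenase gene, by 1.40 (adjusted p 0.0375), and Fdx1, an electron donor of steroid synthesis, by 0.82 (adjusted p 0.00064), or by 0.25 without those mice (adjusted p 0.0319). Mgarp, a mitochondrial protein gene of steroid-making cells, had the largest negative difference, -1.75 ± 0.61 (adjusted p 0.0119), or -0.62 without those mice (adjusted p 0.0259). Ovgp1, which encodes the oviduct glycoprotein, was at -3.78 to 1.73 in Lep-rich mice and at -3.53 to 4.25 in Lep-poor mice. Ovgp1 fell by 1.65 (SE 0.45, adjusted p 0.00121) and lost its call without those mice (adjusted p 0.0715), as did Hsd3b1 and Foxl2 (adjusted p 0.0994 and 0.685).

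A2ml1, an alpha-2-macroglobulin-like protease inhibitor gene, fell by 1.75 (adjusted p 0.000187). Chrdl2, which encodes a BMP antagonist, fell by 1.53 (adjusted p 7.75e-05), Lama1, a laminin gene, by 1.43 (adjusted p 0.00562), Tspan8, an epithelial tetraspanin gene, by 1.32 (adjusted p 0.000421) and Tcte1, a gene of the ciliary dynein regulator, by 1.29 (adjusted p 5.63e-06). Without the mice with steroidogenic transcripts, A2ml1 fell by 0.63, Chrdl2 by 0.94, Lama1 by 0.61 and Tcte1 by 0.67, each still called, and Tspan8 lost its call (adjusted p 0.0862). Smooth muscle genes were lower in 6 of 6, against 25.2% of all probes, with a median of -0.62. Cnn1, the calponin gene, was lowest at -0.95 (adjusted p 0.00152), Actg2, an enteric actin gene, differed by -0.80 (adjusted p 0.00226) and Smtn, which encodes smoothelin, by -0.28 (adjusted p 0.00229). None of the 6 was called without the mice with steroidogenic transcripts. Of 4 mesothelial genes, 3 were lower and 1 higher, against 25.2% and 29.6% of all probes. Without those mice 1 was higher and none lower. Wt1, the Wilms tumour factor gene, fell by 0.60 (adjusted p 3.81e-05) and Krt19, a keratin gene, by 0.59 (adjusted p 0.000288), and lost their calls without those mice (adjusted p 0.0668 and 0.0948). How much the other tissue adds to the differences of the remaining genes was examined only by fits made in other ways. Of the 96 named genes called, 30 lost their call without the mice with steroidogenic transcripts. Without the 66 mice with any other tissue list high, 48 lost it, and with the epithelium score as a covariate, 17 lost it.

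**Figure D3:**
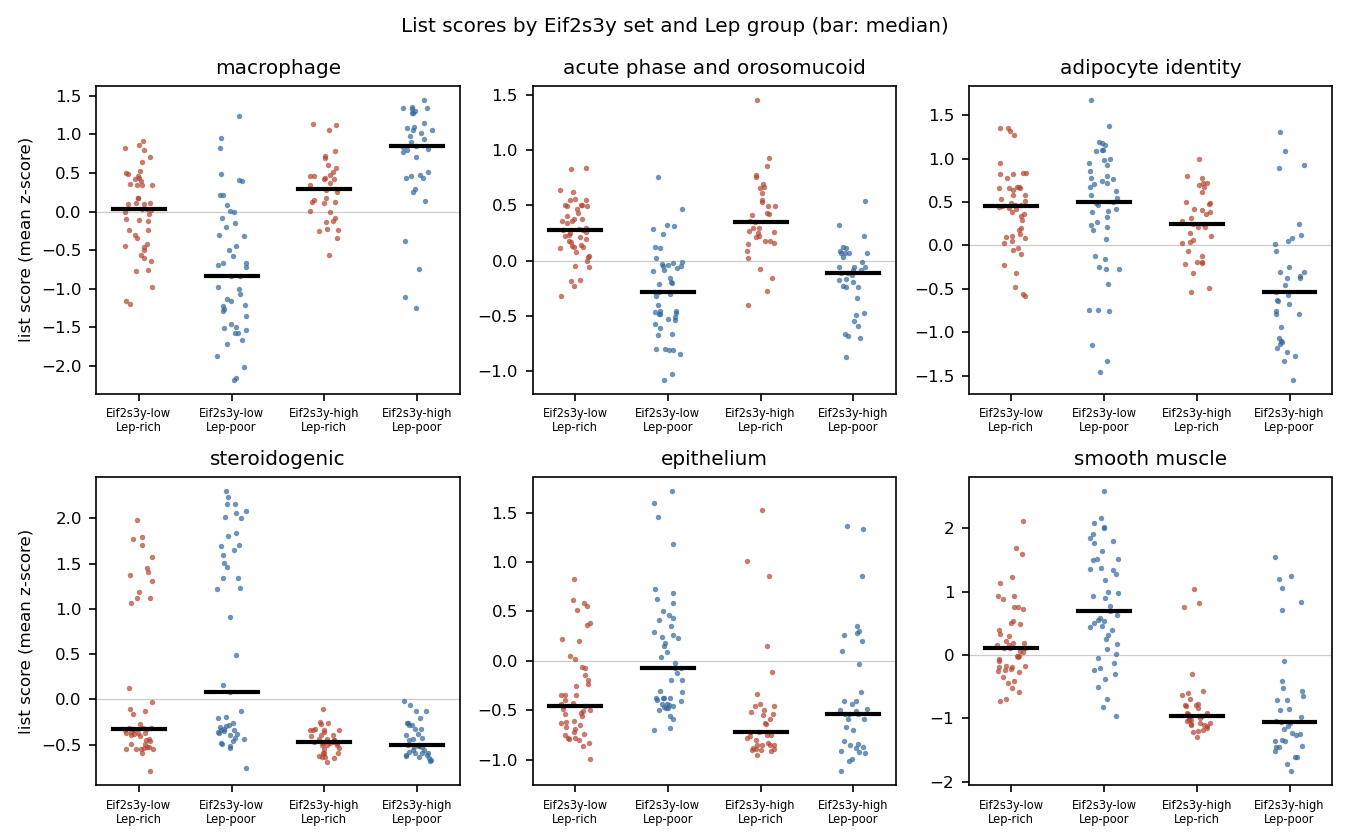
List score (mean z-score over members, vertical axis) of each Lep-rich and Lep-poor mouse of the Eif2s3y-low set (left pair in each panel) and of the Eif2s3y-high set without epididymis transcripts (right pair), with medians as bars. The macrophage score has a median of 0.040 in Lep-rich and -0.83 in Lep-poor mice of the Eif2s3y-low set, and of 0.29 and 0.85 in those of the Eif2s3y-high set.

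The Eif2s3y-high mice show whether these differences go with Lep in both sets. Of the 153 Eif2s3y-high arrays, 48 carried epididymis transcripts (a list score above 1) and were left out, and the other 105 were ranked by Lep anew, with 35 Lep-rich and 35 Lep-poor mice. Their Lep means differed by 0.96 on the log2 scale, and those of the Eif2s3y-low groups by 0.94. In the Eif2s3y-high mice 4717 probes were higher in Lep-rich mice (20.6%) and 3085 lower (13.5%). Probes higher in both sets numbered 3034, which is 44.7% of those higher in the Eif2s3y-low and 64.3% of those higher in the Eif2s3y-high mice. Probes lower in both numbered 1789, or 31.0% and 58.0%. The common pool is on all arrays, and no mouse is in both sets.

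The difference between the sets was tested itself, as the Lep-rich minus Lep-poor difference in Eif2s3y-low mice minus that in Eif2s3y-high mice. It was above 0 for 1437 probes (6.28%) and below 0 for 1801 (7.87%) at an adjusted p of 0.05. With each array's median subtracted, the counts were 1809 and 1473, so that the share above 0 was 55.1% in place of 44.4%, and which direction has more calls depends on the centring. Without the steroidogenic arrays among the Eif2s3y-low mice, the counts were 362 and 249. The list counts and single-gene values of differences between the sets below keep the steroidogenic arrays. They leave out the epididymis arrays, unless another setting is named. The list counts were not made without the steroidogenic arrays. They are read against the 6.28% of all probes above 0 and 7.87% below 0. List counts within the Eif2s3y-high mice are read against 20.6% higher and 13.5% lower.

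**Figure D4:**
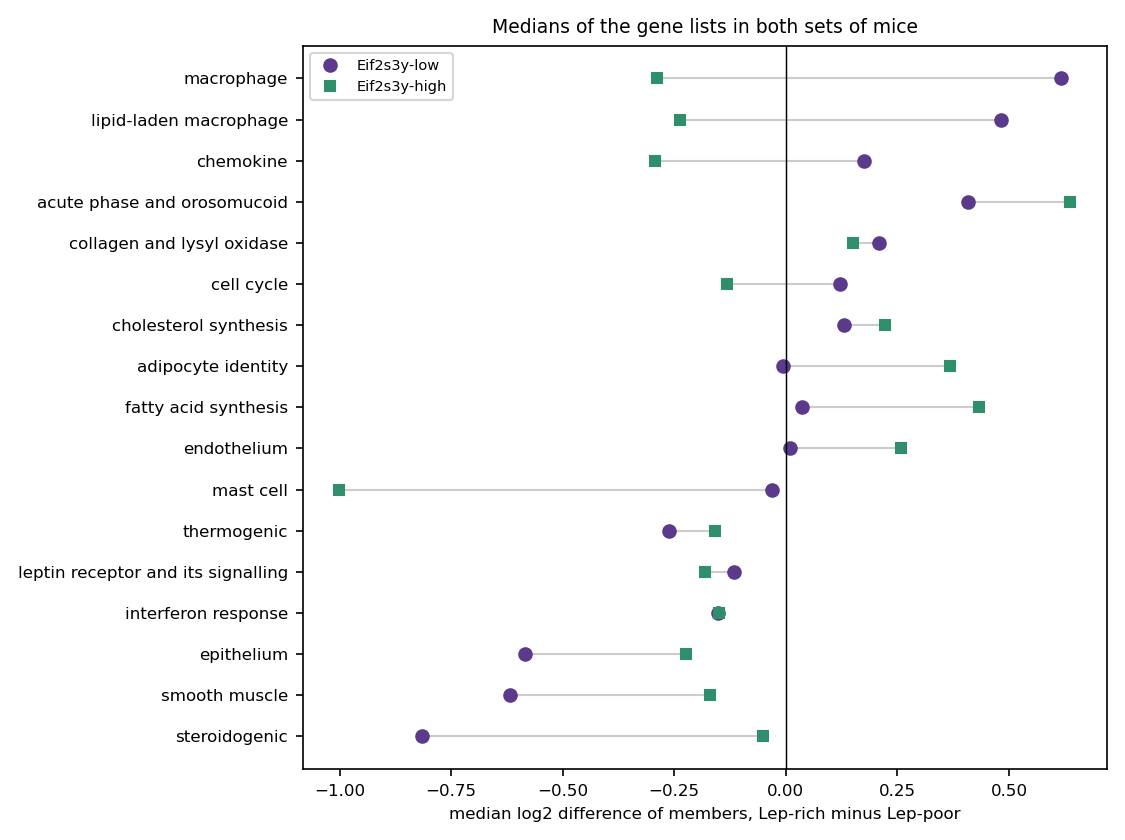
Median log2 difference of the members of each gene list between Lep-rich and Lep-poor mice (horizontal axis), in Eif2s3y-low mice (circles) and Eif2s3y-high mice (squares). Macrophage genes have medians of 0.62 and -0.29, adipocyte identity genes -0.0062 and 0.37, and acute phase genes 0.41 and 0.64.

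The Lep difference of macrophage genes was not the same in the sets. In the Eif2s3y-low mice 16 of 19 were higher and none lower, or 9 and none without those with steroidogenic transcripts. In the Eif2s3y-high mice 1 was higher and 9 were lower, with a median of -0.29 and 9 not called. With the steroidogenic arrays kept, the difference between the sets was above 0 for 17 of 19. Adgre1 in the Eif2s3y-high mice was at -0.90 to 1.30 with a median of 0.24 in Lep-rich mice, and at -1.79 to 1.46 with a median of 0.80 in Lep-poor mice. Its difference there was -0.27 ± 0.16 (adjusted p 0.169), and the difference between the sets was 1.18 ± 0.24 (adjusted p 0.000247). For chemokines and receptors the difference between the sets was above 0 for 16 of 23 and below 0 for 1, and for the lipid-laden macrophage list above 0 for 6 of 8. Ccl2 differed by 1.09 between Lep-rich and Lep-poor mice of the Eif2s3y-low set and by 0.12 between those of the Eif2s3y-high set (difference between the sets 0.97 ± 0.21, adjusted p 0.000878). Mmp12 had medians of 0.013 in Lep-rich and 0.50 in Lep-poor mice of the Eif2s3y-high set. Its difference between the sets was 1.76 ± 0.40 (adjusted p 0.00132).

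Adipocyte genes rose with Lep in the Eif2s3y-high mice. In the Eif2s3y-high mice 9 of 14 adipocyte identity genes were higher and none lower, with a median of 0.37, and 11 of 14 fatty acid synthesis genes were higher and none lower, with a median of 0.43. The difference between the sets was below 0 for 7 and 5 of these 14 each, and above 0 for none. Slc2a4 was at -1.56 to 0.63 in Lep-rich mice and at -1.81 to 0.88 in Lep-poor mice of the Eif2s3y-high set. Its difference between the sets was -0.66 ± 0.19 (adjusted p 0.00945). Endothelial genes were higher in 12 of 16 in the Eif2s3y-high mice and in 4 of 16 in the Eif2s3y-low mice (1 of 16 without those with steroidogenic transcripts), and the difference between the sets was below 0 for 8. Kdr, the VEGF receptor gene, fell by 0.45 in the Eif2s3y-low mice (adjusted p 0.0014, and 0.206 without the mice with steroidogenic transcripts), and its difference between the sets was -0.76 ± 0.18 (adjusted p 0.00176). Cdh5, the VE-cadherin gene, rose in both, by 0.24 ± 0.05 in the Eif2s3y-low mice (adjusted p 1.18e-05) and by 0.24 in the Eif2s3y-high mice (adjusted p 2.23e-07). Its difference between the sets was 0.0072, with a 95% interval of -0.11 to 0.13 (adjusted p 0.949).

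Mast cell genes differed with Lep in the Eif2s3y-high mice. There 7 of 8 were lower, with a median of -1.001, while 2 of 8 were lower in the Eif2s3y-low mice, or none without those with steroidogenic transcripts, and the difference between the sets was above 0 for 6 of 8. Cpa3, the mast cell carboxypeptidase gene, was at -1.59 to 0.30 in Lep-rich mice and at -2.07 to 1.24 in Lep-poor mice of the Eif2s3y-low set. In the Eif2s3y-high mice it was at -2.24 to 0.50 in Lep-rich mice and at -1.36 to 2.93 in Lep-poor mice. The difference was 0.013 ± 0.12 in the Eif2s3y-low mice, which did not pass the test, and -1.64 ± 0.25 in the Eif2s3y-high mice (adjusted p 6.33e-07).

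Acute phase genes moved with Lep in both sets. In the Eif2s3y-high mice 6 of 10 were higher and 3 lower, with a median of 0.64, and the difference between the sets was above 0 for 1, Pltp, and below 0 for none. Saa3 in the Eif2s3y-high mice was at -1.19 to 1.62 with a median of 0.58 in Lep-rich mice, and at -1.57 to 0.83 with a median of -0.68 in Lep-poor mice. It rose there by 1.04 ± 0.15 (adjusted p 2.44e-07), and the difference between the sets, 0.17, had a 95% interval of -0.26 to 0.59. Orm1 rose by 1.005 ± 0.10 in the Eif2s3y-high mice, and its difference between the sets was -0.35 ± 0.16 (adjusted p 0.105). Mstn rose by 0.89 ± 0.09 there, more than in the Eif2s3y-low mice, with a difference between the sets of -0.34 ± 0.10 (adjusted p 0.0181). Tph2 rose by 1.17 ± 0.19 in the Eif2s3y-high mice, and the difference between the sets did not pass the test (0.43, adjusted p 0.311).

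**Figure D5:**
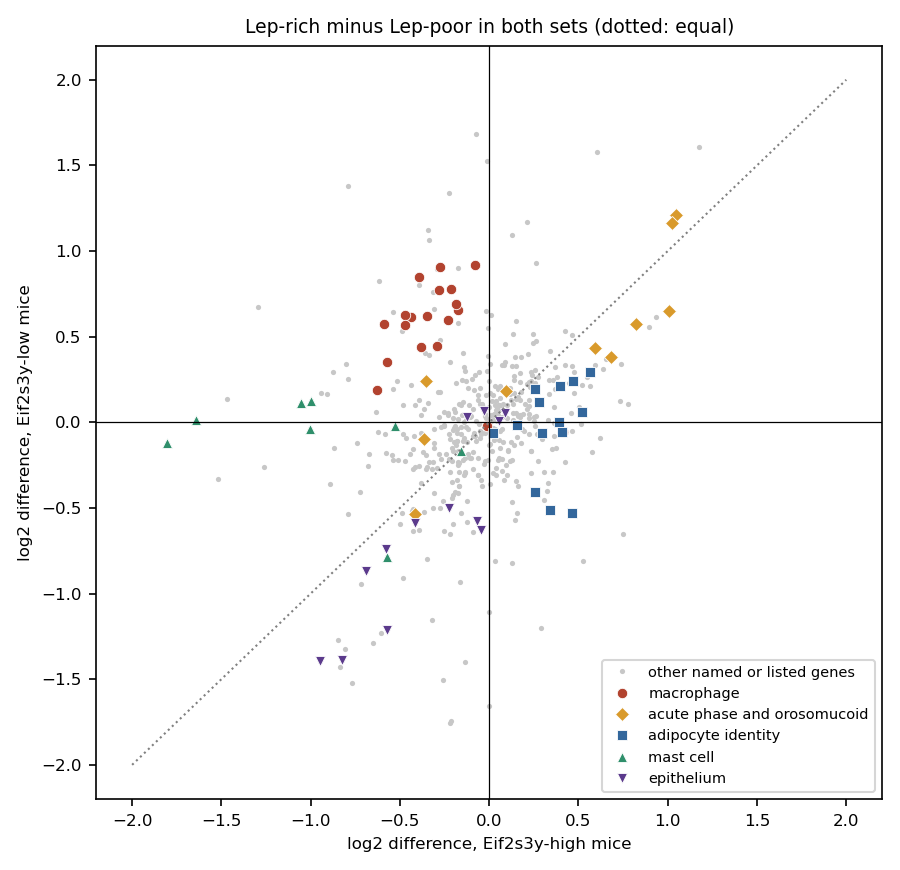
Log2 difference between Lep-rich and Lep-poor mice in Eif2s3y-low mice (vertical axis) against that in Eif2s3y-high mice (horizontal axis), 1 point a named or listed gene, with 5 lists in colour and a dotted line where both are equal. Most macrophage genes lie in the upper left, adipocyte identity genes lie below the line, and Saa3, at 1.21 and 1.04, is near the line.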

How the data were processed

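Adipose RNA of 295 F2 mice was measured on 2-colour arrays, 1 array a mouse, against a pool. The deposited values are ratios by the authors, for 23387 probes, taken here as log10 ratios. Scale and direction are not stated and were read from the values. The Eif2s3y-high median, 0.379, is nearest to the 0.285 that a log10 scale gives for a gene carried by 153 of 295 pooled mice (natural log 0.657, log2 0.947). The mean fell with the variance over probes (slope -1.81), as for mouse over pool. Fold sizes rest on the log10 reading, and calls do not. Background correction and normalization are not given in the sources used here. To put them on the log2 scale, values were scaled by 3.32; missing values (1.02%) stayed missing, and probes with a value on at least 90% of arrays were tested. Genes were named through the platform annotation and RefSeq (12652 probes matched), by the most variable probe with 1 symbol. For 1 mouse, title and source name carry unlike numbers, and the title's was taken.

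The members, the rule and the 44 gene lists (466 of 624 genes measured) were chosen with earlier results of these data known, and all lists are descriptions. Named genes are the 12 largest differences called in each direction, the 3 members of a list with the largest moderated t, members of the acute phase, adipose expansion, caveola and myostatin lists, Lepr, the Y-linked checks, and the 6 largest differences between the sets in each direction. Tests used limma 3.58.1 (R 4.3.3), and p-values were adjusted over 22893 probes by Benjamini-Hochberg; Python 3.11.15 with pandas 2.3.3 did the rest. In a test on simulated data with 22893 probes, each had independent normal noise, and 100 were changed by 0.5 and 100 by 1. The Lep contrast found 93% of probes changed by 0.5 and 100% of those changed by 1, with 5 false calls. The difference between the sets found 84% and 97%, with 10 false calls. Noise shared between probes and widespread changes, as in these data, were not simulated. The false calls therefore do not give the error rate of the real contrasts. Arrays give no read depth, and their number limits the precision. Nothing in the labels says that arrays were repeated, so the spread between mice holds technical error.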

Additional observations from a re-analysis of the deposited data

Results flagged for a closer look

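The Lep contrast differed between the Eif2s3y-low and the Eif2s3y-high mice by a test of that difference for 1437 probes in the positive and 1801 in the negative direction. The 12 genes with the largest such differences among those called follow, on the log2 scale, as the difference in Eif2s3y-low minus that in Eif2s3y-high mice. Ifi202b differed by 2.17, Clec4d, a C-type lectin gene of myeloid cells, by 1.96, and Mmp12 by 1.76. Clec4d rose by 0.67 in the Eif2s3y-low mice (adjusted p 0.000456) and fell by 1.29 in the Eif2s3y-high mice (adjusted p 0.000111). Leaving out the mice with steroidogenic transcripts ended the Clec4d call in the Eif2s3y-low set (adjusted p 0.114). Cma1 and Cpa3, both mast cell protease genes, differed by 1.68 and 1.65, and Serpinb9b, a granzyme inhibitor family gene, by 1.60. These 3 did not pass the test in the Eif2s3y-low mice (adjusted p 0.46, 0.935 and 0.375). Among Eif2s3y-high mice, Cma1 fell by 1.80, Cpa3 fell by 1.64 and Serpinb9b fell by 1.47 on the log2 scale.

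In the negative direction, Ovgp1 differed by -1.65, A2ml1 by -1.53 and Agr2 by -1.24. With the epididymis arrays included, the A2ml1 and Agr2 differences turned to 0.63 (adjusted p 0.388) and 1.82 (adjusted p 0.0123). Cyp2e1, an ethanol-oxidising cytochrome gene, differed by -1.49, Cnksr1, a signalling scaffold gene, by -1.40, and Amhr2, the receptor gene of anti-Müllerian hormone, by -1.33. Cyp2e1 was at -3.39 to 2.43 with a median of -0.62 in Lep-rich mice, and at -2.75 to 2.95 with a median of 1.08 in Lep-poor mice of the Eif2s3y-low set. Amhr2 fell by 0.81 in the Eif2s3y-low mice and lost its call without those with steroidogenic transcripts (adjusted p 0.143). Of the 12 differences between the sets, 6 were still called without these mice and 6 lost their call. The part of these mice in the others was not tested further.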

How the results depend on the processing

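Counts of probes called higher and lower (6782 and 5767) fell in some fits: to 1520 and 1548 without the 66 arrays with any other tissue list high (leaving 32 Lep-rich against 15 Lep-poor mice), to 4099 and 3600 without the steroidogenic arrays, and to 3559 and 3090 with the first principal component (20.8% of the variance) as a covariate. Within the lower, middle and upper range of mouse numbers they were 1590 and 1626, 324 and 498, and 4760 and 3825. They stayed within 1.5 times under the other 12 settings. The difference between the sets (1437 and 1801) gave 2267 and 4272 with the epididymis arrays included, 2347 and 2933 as a difference of slopes on Lep, and 362 and 249 without the steroidogenic arrays. The sign of a named gene turned in these cases, none called except Agr2: with the macrophage score as covariate, Itgax (-0.10), Pltp (-0.10), Inhbb (0.049), Slc2a4 (0.012) and Acaca (0.0067); with the principal component, Sfrp5 (-0.036); in the middle mouse range, Inhbb (0.040) and Elovl3 (0.086); with the other probe, Cdh1 (0.11); and, with the epididymis arrays, the set differences of A2ml1 (0.63) and Agr2 (1.82, adjusted p 0.0123). Of 102 named genes, 96 were called. Of these, 48 lost their call without arrays with other tissue, 46 with the macrophage score, 37 with the principal component, 30 without the steroidogenic arrays, and 17 with the epithelium score. By range of mouse numbers, 28 lost it in the lower, 81 in the middle and 36 in the upper one. At most 2 lost it under any other setting on the same probes. Where another probe of a named gene was read, 5 genes kept their result, 1 lost its call and 1, Cdh1, turned its sign. Among Lep-middle mice, where Lep spans 0.373, no probe was called by limma for its slope on Lep and 2994 (13.1%) had an unadjusted p under 0.05. The within-range, adipocyte, epithelium and steroidogenic settings were chosen after seeing the data. Mice are numbered individually. No paired analysis was possible because each mouse is in 1 group. The cause of these changes was not tested.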
